A study of Homo sapiens with 6 samples.

Results

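Cells write and erase DNA methylation with a small set of proteins, and 9 of their genes are described here: the methyltransferases DNMT1, DNMT3A and DNMT3B, the methyltransferase partners UHRF1 and UHRF2, the dioxygenases TET1, TET2 and TET3, and the methyl-CpG reader MBD2. They were chosen by name and matched to the rows of the deposited count table through the Ensembl identifiers of GENCODE 29. All 9 had a row among the 18677 in the table, and all 9 were among the 17675 genes tested. The 6 RNA-seq libraries came from H1299, an established cell line from a human non-small cell lung carcinoma. The 3 SETDB1-knockout libraries carried the guide hSETDB1 sg1 and the 3 control-knockout libraries the guide Control sg2, and both lines were grown with puromycin. Each group rests on 1 guide. Whether a line was a clone or a pool, and whether replicates were separate cultures, is not in the labels, so p-values measure only the spread between these samples.

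DNMT1 copies methylation onto the new strand after replication, and UHRF1 brings it there by binding both half-methylated DNA and histone H3 methylated at lysine 9, the mark that SETDB1 helps to place. DNMT3A and DNMT3B can methylate DNA that carried no mark before. TET proteins oxidise methylcytosine, which is then lost at replication or cut out by base excision repair, while MBD2 binds methylated CpG sites and brings the NuRD repressor complex. The counts are of mRNA, and DNA methylation itself was not measured.

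The libraries held 29532057 to 35941288 counts. SETDB1 mRNA averaged 38.6 ± 2.31 CPM in knockout cells and 43.5 ± 1.76 CPM in control cells (SD, n = 3 each; CPM, counts scaled by library size with TMM), a log2 fold change of -0.17 ± 0.06 (SE; edgeR adjusted p = 0.0151). Scaling by library size alone ended this call, as did leaving out knockout replicate 2, and an edited gene can keep its mRNA, so the level checks the labels only in part. The carcinoma line markers VIM, KRT8 and KRT18 were expressed in both groups, VIM at 2216 ± 58.5 CPM in knockout cells and 2430 ± 61.3 CPM in control cells. KRT8 fell by 1.22 and KRT18 by 0.85 on the log2 scale (edgeR adjusted p = 1.02e-13 and 6.53e-11). The VIM value was -0.13 on the same scale (edgeR adjusted p = 0.0441), a call that 8 of 15 other settings did not keep, among them 5 of the 6 that left out a library (every library but control replicate 1). KRT8 and KRT18 overlap on opposite strands, so their reads may not be separable, and EPCAM had 0.179 ± 0.0694 CPM in knockout cells and 0.254 ± 0.0765 CPM in control cells and was not tested. Of 11 markers of other cell types, 9 had no row in the table, and the other 2, VWF and DCN, brought the summed level to between 0.293 and 0.578 CPM in knockout cells and between 0.424 and 0.631 CPM in control cells.

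The maintenance pair DNMT1 and UHRF1 rose slightly in the SETDB1 knockout, whereas DNMT3B, UHRF2, TET1, TET3 and MBD2 fell. DNMT3A and TET2 did not pass the test. By edgeR's quasi-likelihood test with Benjamini-Hochberg adjustment over all genes, 2 of the 9 were called higher and 5 lower, against a background of 31.9% of all genes called higher and 31.6% called lower (63.5% in either direction), so that being called does not set these genes apart. Their median log2 fold change was -0.26, against 0.01 over all genes tested, and their median change regardless of sign was 0.27, against 0.33. Only TET1 was called with a change of at least 1.5-fold, a size reached by 27.3% of all genes. The 3 libraries of each group did not overlap for 8 of the 9 genes, where the same held for 66.8% of all genes.

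Windows of 250 bases before the transcription start are given for DNMT1, UHRF1 and TET1, the pair that rose and the gene that fell most, because CpG sites before a start are substrates of these enzymes, although their methylation was not measured. They were taken from RefSeq (GRCh38.p14), each at the first start listed for its gene. The DNMT1 and UHRF1 windows lie inside the gene spans given below, which reach to the outermost annotated transcript. Only 2 of the 6 basic GENCODE transcripts of UHRF1 start within 500 bases of the end of its window, so its CG count and words describe 1 of 3 listed starts. For DNMT1 the number was 2 of 2, with 1 start listed. For TET1 it was 1 of 1, but its window too describes only 1 of 3 listed starts. In the sequences capitals mark CG dinucleotides, the site the enzymes act on. The DNMT1 window is chr19:10194954-10195203 on the minus strand, the UHRF1 window chr19:4909251-4909500 on the plus strand and the TET1 window chr10:68560087-68560336 on the plus strand.
DNMT1: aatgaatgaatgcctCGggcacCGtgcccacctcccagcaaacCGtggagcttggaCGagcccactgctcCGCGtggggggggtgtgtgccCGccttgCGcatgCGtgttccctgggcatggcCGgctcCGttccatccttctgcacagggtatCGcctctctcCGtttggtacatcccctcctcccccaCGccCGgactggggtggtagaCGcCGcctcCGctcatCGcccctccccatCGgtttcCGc
UHRF1: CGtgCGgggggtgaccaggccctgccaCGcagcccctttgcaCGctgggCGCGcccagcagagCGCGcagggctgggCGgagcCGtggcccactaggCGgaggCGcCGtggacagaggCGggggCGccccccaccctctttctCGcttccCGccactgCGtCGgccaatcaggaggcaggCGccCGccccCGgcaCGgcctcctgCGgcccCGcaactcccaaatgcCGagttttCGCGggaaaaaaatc
TET1: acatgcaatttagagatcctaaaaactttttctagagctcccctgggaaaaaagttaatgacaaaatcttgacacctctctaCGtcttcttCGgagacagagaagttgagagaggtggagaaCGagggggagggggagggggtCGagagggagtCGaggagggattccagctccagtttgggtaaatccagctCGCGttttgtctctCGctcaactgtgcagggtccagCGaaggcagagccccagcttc
DNMT1 had 21 CG dinucleotides in its window, UHRF1 had 28 and TET1 had 9, against a median of 11 over 27305 genes. Windows with no more CG than these made up 72.4%, 86.2% and 48.1% of all genes. Binding words of E2F factors, which drive genes of DNA replication, were searched on both strands as TTTCCCGC, TTTCGCGC, TTTGCCGC and TTTGGCGC, which differ from each other only in the middle bases. UHRF1 held 1 of them, TTTCCCGC on the minus strand, which covers the bases from -14 to -7 before the start, and the DNMT1 and TET1 windows held none of these words. At least 1 such word occurred in the windows of 2.79% of all genes. A match describes letters only and does not show that a factor binds there.

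DNMT1 (ENSG00000130816, GRCh38 chromosome 19, 10133345 to 10231286) encodes the maintenance methyltransferase. It had 443, 432 and 446 CPM in the SETDB1-knockout libraries, against 406, 394 and 396 CPM in the control libraries. Every knockout library stood above every control library, with a gap of 25.5 CPM between the nearest ones. The log2 fold change was 0.14 ± 0.05 (SE), or 10.3% more (edgeR adjusted p = 0.0211, and between 0.00263 and 0.122 with other settings). It did not pass when knockout replicate 3 was left out, at 0.13 (edgeR adjusted p = 0.092), or when control replicate 2 was left out, at 0.12 (edgeR adjusted p = 0.122). Its exons share 83 of 9796 bases with S1PR2, a receptor gene on the same strand that had 5.28 ± 0.284 CPM in knockout cells and 4.68 ± 0.450 CPM in control cells and was not called.

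UHRF1 (ENSG00000276043, chromosome 19, 4903080 to 4962154) had 197, 216 and 215 CPM in the SETDB1-knockout libraries, against 171, 170 and 166 CPM in the control libraries. SETDB1-knockout replicate 1 was the lowest of its group and still stood 25.9 CPM above the highest control. The log2 fold change was 0.31 ± 0.05 (SE), or 23.7% more (edgeR adjusted p = 4.74e-05). Its paralog UHRF2 (ENSG00000147854, chromosome 9, 6413151 to 6507054), which shares the domains of UHRF1 but is not known to replace it in maintenance, moved the other way. UHRF2 had 121, 115 and 111 CPM in the SETDB1-knockout libraries, against 151, 151 and 145 CPM in the control libraries. No library of either group reached the other, and the log2 fold change was -0.37 ± 0.05 (SE; edgeR adjusted p = 3.83e-06). The count ratio of UHRF2 to UHRF1, which needs no scaling between libraries, was 0.612, 0.530 and 0.519 in knockout cells and 0.883, 0.885 and 0.876 in control cells. The ratio of UHRF1 to DNMT1 was 0.445, 0.501 and 0.481 in knockout cells and 0.421, 0.432 and 0.418 in control cells. Both ratios separated the groups fully, at the smallest p that an exact two-sided permutation test of 3 against 3 can give, 0.1 (0.125 adjusted over the 5 ratios compared).

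DNMT3B (ENSG00000088305, chromosome 20, 32762385 to 32809356), the de novo methyltransferase known for its action on gene bodies and on repeats near centromeres, had 15.4, 14.1 and 14.0 CPM in the SETDB1-knockout libraries, against 20.7, 19.6 and 19.0 CPM in the control libraries. The 3 knockout values lay close together, 3.64 CPM or more below the controls. It fell by 0.44 ± 0.07 (SE) on the log2 scale, or by 26.5% (edgeR adjusted p = 1.09e-05). Its partner DNMT3A (ENSG00000119772, chromosome 2, 25227855 to 25342590) had 29.3, 28.0 and 29.03 CPM in the SETDB1-knockout libraries, against 30.9, 29.7 and 28.4 CPM in the control libraries, and the groups overlapped. Its log2 fold change was -0.04 with a 95% interval from -0.16 to 0.08 (edgeR adjusted p = 0.553). The ratio of DNMT3B to DNMT3A counts was 0.525, 0.503 and 0.484 in knockout cells and 0.669, 0.658 and 0.671 in control cells (exact two-sided permutation p = 0.1, adjusted 0.125). DNMT3L, the cofactor of both enzymes in germ cells, had no row in the table and was not analysed here.

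TET1 (ENSG00000138336, chromosome 10, 68560656 to 68694482), known from embryonic stem cells, was the scarcest of the 9 genes and had the largest change. It had 3.93, 3.06 and 3.48 CPM in the SETDB1-knockout libraries, against 5.64, 6.09 and 6.52 CPM in the control libraries. These values rest on 106 to 119 counts per knockout library and 169 to 231 per control library. The groups did not overlap, and TET1 fell by 0.81 ± 0.11 (SE) on the log2 scale, or by 43.0% (edgeR adjusted p = 3.07e-06). TET3 (ENSG00000187605, chromosome 2, 73986404 to 74108176), known for its work on the paternal genome of the zygote, had 50.6, 45.8 and 50.4 CPM in the SETDB1-knockout libraries, against 60.5, 61.6 and 55.2 CPM in the control libraries. Its highest knockout library stood 4.53 CPM below its lowest control, and it fell by 0.27 ± 0.06 (SE) on the log2 scale (edgeR adjusted p = 4.95e-04).

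TET2 (ENSG00000168769, chromosome 4, 105145875 to 105279816), often mutated in blood cancers, had 29.3, 30.3 and 27.9 CPM in the SETDB1-knockout libraries, against 31.4, 33.3 and 31.1 CPM in the control libraries. The groups were separated by only 0.789 CPM, and the log2 fold change of -0.13 (95% interval -0.26 to -0.0077) missed the threshold after adjustment (edgeR adjusted p = 0.0595). TET2 passed without SETDB1-knockout replicate 2 at -0.16 (edgeR adjusted p = 0.0426) and without control replicate 3 at -0.16 (edgeR adjusted p = 0.040), and its adjusted p lay between 0.040 and 0.692 with other settings. The ratio of TET1 to TET3 counts was 0.0777, 0.0668 and 0.0691 in knockout cells and 0.0932, 0.0988 and 0.118 in control cells, without overlap (exact two-sided permutation p = 0.1, adjusted 0.125). The ratio of TET2 to TET3 counts was 0.578, 0.661 and 0.554 in knockout cells and 0.519, 0.541 and 0.563 in control cells, with overlap (exact two-sided permutation p = 0.2, adjusted 0.2).

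MBD2 (ENSG00000134046, chromosome 18, 54151601 to 54224788) had 38.9, 44.7 and 44.2 CPM in the SETDB1-knockout libraries, against 45.6, 53.2 and 54.6 CPM in the control libraries. The groups came close, since control replicate 1 stood only 0.921 CPM above the highest knockout library. It fell by 0.26 ± 0.07 (SE) on the log2 scale, or by 16.6% (edgeR adjusted p = 0.00254). These are bulk libraries, in which fewer cells with an mRNA and less of it per cell cannot be told apart.

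**Figure D1:**
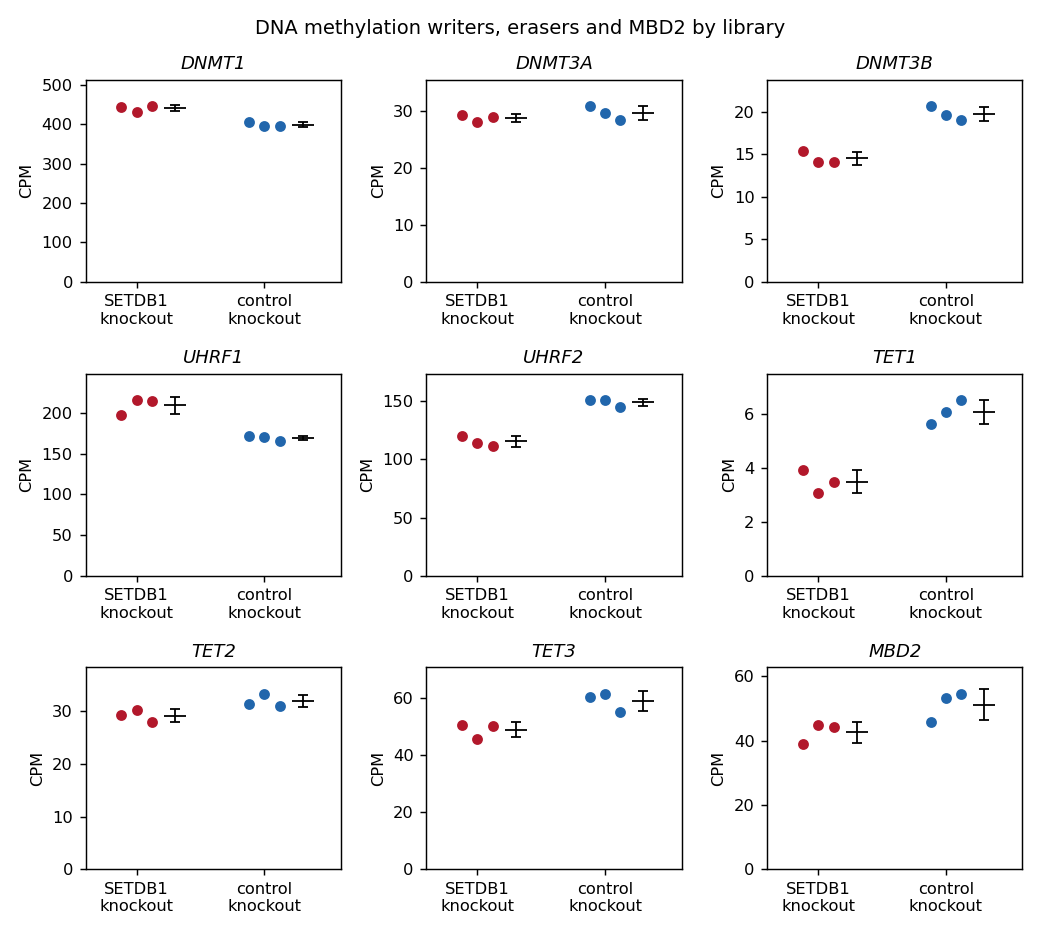
Each panel plots the CPM (TMM-scaled) of a gene in the 3 SETDB1-knockout libraries (red, left) and the 3 control-knockout libraries (blue, right), with the group mean and SD as a bar beside the points and the axis starting at 0. DNMT1 and UHRF1 are higher in the knockout, DNMT3B, UHRF2, TET1, TET3 and MBD2 are lower, and the DNMT3A points overlap.

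Per kilobase of annotated exon, the 9 genes stood in the same order in both groups. In the SETDB1 knockout DNMT1 had 44.9 ± 0.771 CPM per kb, UHRF1 40.7 ± 2.06, UHRF2 11.6 ± 0.464, MBD2 7.34 ± 0.554, TET3 3.99 ± 0.221, DNMT3B 3.13 ± 0.165, DNMT3A 2.40 ± 0.0568, TET2 1.77 ± 0.0719 and TET1 0.376 ± 0.0468 CPM per kb (SD, n = 3). In the control the levels were 40.7 ± 0.644 CPM per kb for DNMT1, 32.9 ± 0.557 for UHRF1, 15.03 ± 0.334 for UHRF2, 8.80 ± 0.829 for MBD2, 4.82 ± 0.281 for TET3, 4.26 ± 0.179 for DNMT3B, 2.47 ± 0.105 for DNMT3A, 1.94 ± 0.0738 for TET2 and 0.655 ± 0.0477 for TET1. Each step in this order exceeded the SD of the genes on either side, but the order depends in part on which exons are counted. With the longest transcript as the length, UHRF2 (40.0 CPM per kb) stood just above UHRF1 (39.3) in control cells, and TET2 (3.14) just above DNMT3A (3.12). On the exon scale DNMT1 lay above 94.2% of all genes tested and TET1 above 17.8%.

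Within families, DNMT1 made up 89.0% ± 0.315 of the summed DNMT level per kb in knockout cells and 85.8% ± 0.362 in control cells, and the share of DNMT3B was 6.21% ± 0.288 in knockout cells and 8.98% ± 0.220 in control cells (SD, n = 3 each). UHRF1 made up 77.7% ± 1.56 of the UHRF level in knockout cells and 68.6% ± 0.118 in control cells. TET3 was the most abundant TET mRNA, with 65.0% ± 1.63 in knockout cells and 65.0% ± 1.40 in control cells. The summed TET level was 6.13 ± 0.215 CPM per kb in knockout cells and 7.41 ± 0.309 CPM per kb in control cells, whereas the summed DNMT level was 50.5 ± 0.891 CPM per kb in knockout cells and 47.5 ± 0.892 CPM per kb in control cells. The shares depend on the length used: with the longest transcript, DNMT3B had 3.81% in knockout cells and 5.59% in control cells, and UHRF1 61.0% in knockout cells and 49.5% in control cells. Shares were not tested beyond the 5 ratios above.

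Several of the changes were shared with the genes next door on the chromosome. For each gene the median log2 fold change of up to 25 expressed genes on each side (log2 CPM above 3) was taken, and 30.4% of all tested genes had a neighbourhood median further than 0.25 from 0. Of all genes tested, 31.6% were called lower and 31.9% higher. TET1 lay in a stretch of chromosome 10 where 46 of 50 neighbours were called lower and 2 higher, with a median of -0.54. MBD2 had 36 of 50 neighbours called lower and 2 higher, with a median of -0.32. UHRF2, near the end of chromosome 9, had 25 of 42 called lower and 7 higher, with a median of -0.21. DNMT1 and UHRF1 both lie on chromosome 19, where 32 and 27 of their 50 neighbours were called higher and 6 and 4 lower, with medians of 0.27 and 0.19.

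The wider neighbourhoods of DNMT3B and TET3 were not shifted downward as a whole. DNMT3B had a neighbourhood median of 0.01, with 18 of 50 neighbours called higher and 16 lower, and ranked 6th from the lowest among the 50 neighbours and itself. TET3 fell in a stretch with a median of 0.14, with 23 of 50 neighbours called higher and 12 lower, and ranked 9th from the lowest. Closer in, some neighbours were lower as well, with values of -0.61 and -0.06 for the expressed genes just before and just after DNMT3B. Of the 5 nearest expressed genes on each side, a window chosen after the values were seen, 4 of 10 were called lower and 1 higher around DNMT3B (median -0.11), and 3 lower and 3 higher around TET3 (median 0.04). The same window held 10 of 10 called lower around TET1 and 9 of 10 called higher around DNMT1. It held 9 called lower and 0 higher around MBD2, 7 higher and 1 lower around UHRF1, and 2 lower and 0 higher around TET2. Around DNMT3A, itself not called, it held 7 called lower and 1 higher, with a median of -0.18. Around UHRF2 it held 4 called lower and 4 called higher, with a median of -0.03, so the lower values there came from genes further away. In the wider neighbourhoods DNMT3A had 16 neighbours called higher and 16 lower (median 0.06), and TET2 had 2 higher and 20 lower (median -0.10).

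When the neighbourhood median was taken out of each gene, 5 of the 9 genes were called lower and 0 higher, against 26.5% of all genes called lower and 30.2% called higher (56.7% in either direction) in the same fit. DNMT3B kept its fall, at -0.45 ± 0.07 (SE; edgeR adjusted p = 1.19e-05), and TET3 stood at -0.41 ± 0.06 (edgeR adjusted p = 6.42e-06). TET1 was left with -0.27 ± 0.11 (edgeR adjusted p = 0.0496) and UHRF2 with -0.15 ± 0.05 (edgeR adjusted p = 0.0161). DNMT1 turned to -0.12 ± 0.05 (edgeR adjusted p = 0.047). UHRF1 stood at 0.12 ± 0.05 (edgeR adjusted p = 0.0699) and MBD2 at 0.057 ± 0.07 (edgeR adjusted p = 0.505), and neither passed. At an unadjusted p under 0.05 in this fit 1 of the 9 was higher, UHRF1, with a 95% interval from 0.0049 to 0.23. Without this step DESeq2 and limma-voom each called 2 of the 9 higher. The median is treated as known without error in this fit, so its p-values are too small. What moves the neighbours was not tested.

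**Figure D2:**
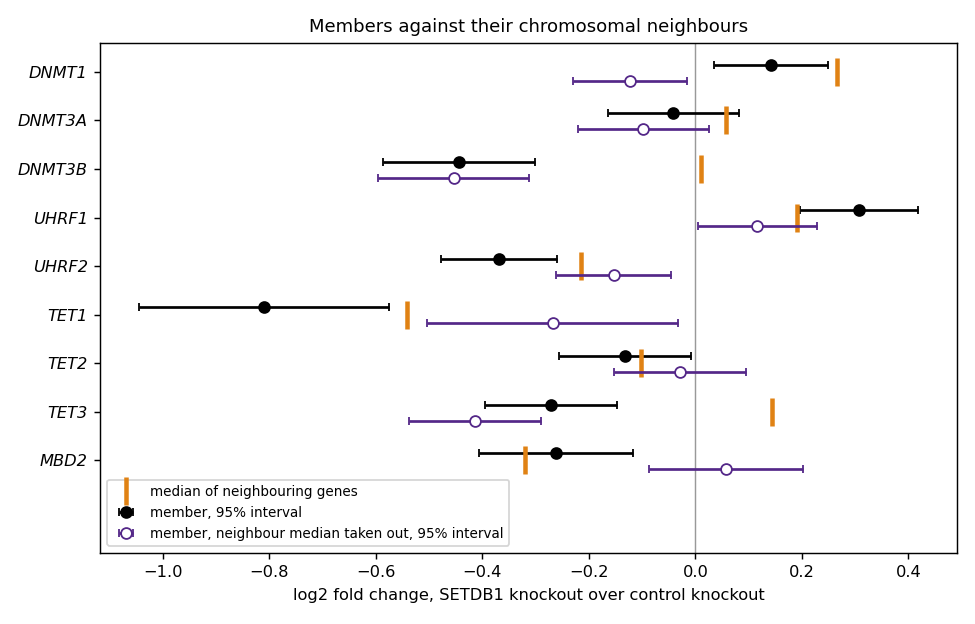
Log2 fold change (SETDB1 knockout over control) of each gene with its 95% interval (black), the median of its chromosomal neighbours (orange bar) and the gene's value with that median taken out (open purple, 95% interval). DNMT3B and TET3 stay low in both forms, whereas DNMT1 goes from 0.14 to -0.12 and MBD2 from -0.26 to 0.057.

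The other genes that read, support or follow DNA methylation moved in both directions. As background for this and the following lists, 31.9% of all genes were called higher and 31.6% lower (63.5% in either direction). With each gene's neighbourhood median taken out, the shares were 30.2% higher and 26.5% lower. Of 9 further methyl-CpG readers, 2 rose and 6 fell, with a median log2 fold change of -0.23 (1 rose and 3 fell after removal of each gene's neighbourhood median). MBD4, a reader that is also a DNA glycosylase for mismatched thymine, rose to 49.3 ± 1.33 CPM in knockout cells, against 36.8 ± 0.437 CPM in control cells (log2 fold change 0.42 ± 0.05 SE, edgeR adjusted p = 9.14e-07), and MBD6 rose by 0.33. MBD5 fell by 0.58, ZBTB38 by 0.45 and MBD1 by 0.42 on the log2 scale, and MBD5 lay among neighbours with a median of -0.72. Of 12 genes of the NuRD complex, which holds MBD2 or MBD3, 5 rose and 2 fell, with a median of 0.11. The remodeller CHD3 rose by 0.86 in a stretch with a neighbourhood median of 0.59, and the subunit CDK2AP1 by 0.62 and the deacetylase HDAC1 by 0.40. HDAC2 fell by 0.35 and MTA1 by 0.27, with neighbourhood medians of -0.50 and -0.33.

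Among 8 cofactors of the DNMT and UHRF proteins that were tested, 1 rose and 3 fell. HELLS, a chromatin remodeller needed for methylation of repeats, fell to 55.4 ± 2.65 CPM in knockout cells, against 89.1 ± 0.324 CPM in control cells (log2 fold change -0.68 ± 0.05 SE, edgeR adjusted p = 7.94e-10), and its neighbours on chromosome 10 had a median of -0.66. LIG1, a replicative DNA ligase that helps to recruit UHRF1 when it is methylated, rose by 0.40 among neighbours with a median of 0.46. ZNF445, which guards methylation at imprinted regions, and DMAP1, which binds DNMT1, fell by 0.18 and 0.14, although the libraries of the groups overlapped for ZNF445. Of 15 other settings 8 did not keep the call of ZNF445 and 6 did not keep that of DMAP1. The counts were 3 higher and 1 lower with library size alone or with upper-quartile scaling, and the lower count was 1 when knockout replicate 2, knockout replicate 3 or control replicate 2 was left out. The higher count was 3 without knockout replicate 1 and 2 without control replicate 3, so no direction is given for this group. ZFP57 and DPPA3 had no row in the table.

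Of 13 tested genes of base excision repair and the GADD45 family, which act after TET oxidation, 6 rose and 4 fell, with a median of 0.07. The glycosylase genes NTHL1 and NEIL2 rose by 0.77 and 0.59 on the log2 scale and PARP1 by 0.51. XRCC1, the scaffold of single-strand repair, fell by 0.83 among neighbours with a median of -0.84. NEIL1 and GADD45A fell by 0.61 and 0.58. NEIL1 was low, at 30 to 58 counts per library, and did not pass when knockout replicate 3 or control replicate 2 was left out. TDG, the glycosylase that removes the TET products formylcytosine and carboxylcytosine, had 41.5 ± 1.82 CPM in knockout cells and 39.7 ± 1.21 CPM in control cells and did not pass (edgeR adjusted p = 0.321). Of 13 TET regulators and enzymes that make or compete with the TET cosubstrate 2-oxoglutarate, 5 rose and 5 fell (5 rose and 3 fell after that removal). CXXC4, whose product binds TET2 and lowers its protein, rose by 0.89 from a low level, IDH2 rose by 0.47 and D2HGDH by 0.45. CXXC5, WT1 and IDH3B fell by 0.93, 0.73 and 0.44. The level of CXXC5 was lower still, at 0.624 CPM in knockout cells and 1.21 CPM in control cells. It rests on 10 to 43 counts per library, and its groups were only 0.0276 CPM apart.

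Of 14 tested genes of the methyl donor cycle, 6 rose and 4 fell, with a median of 0.09 (3 rose and 3 fell after that removal; 2 fell when control replicate 1 was left out, by DESeq2 or with upper-quartile scaling, and 1 with a filter of 1 CPM in 3 libraries). AHCYL2, AHCYL1 and SHMT2 rose by 0.29, 0.28 and 0.27 on the log2 scale. The 3 largest falls were those of NNMT, MAT1A and GNMT, each averaging less than 1 CPM in either group. GNMT, whose groups overlapped, did not keep its call in 8 of 15 other settings. NNMT stood at 0.0388 ± 0.0336 CPM in knockout cells and 0.773 ± 0.0677 CPM in control cells. MAT2A, the main source of the methyl donor in cancer cells, had 654 ± 56.0 CPM in knockout cells and 626 ± 15.9 CPM in control cells and did not pass (edgeR adjusted p = 0.389).

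DNMT1 and UHRF1 are expressed mainly in dividing cells, and 20 proliferation genes were set beside them. Of these 10 rose and 5 fell, with a median of 0.13 (6 rose when knockout replicate 3 was left out, and 13 rose and 3 fell after removal of the neighbourhood median). AURKB, MCM2 and MCM5 rose by 0.69, 0.45 and 0.42 on the log2 scale, whereas MKI67, CDK1 and BUB1 fell by 0.67, 0.62 and 0.55. The summed level of all 20 genes was between 5037 and 5082 CPM in knockout cells and between 5070 and 5269 CPM in control cells. The part of proliferation in the rise of DNMT1 and UHRF1 was not tested. Of 10 germline genes known to be held silent by promoter methylation, 8 had no row in the table. MAGEA1 rose by 0.32 from a level that was already high in control cells, at 99.9 ± 3.82 CPM in knockout cells and 79.9 ± 3.00 CPM in control cells (edgeR adjusted p = 2.41e-05), and HORMAD1 was not called (2 of 2 were called higher with library size alone). MAGEA1 belongs to a family of similar genes, so its reads are uncertain. Removal of the neighbourhood median ended the calls named above for MBD5, MBD6, MTA1, HELLS, LIG1, XRCC1, D2HGDH, IDH3B, AHCYL1, AHCYL2, SHMT2, GNMT, CDK1 and BUB1. With the same removal HDAC2 turned from called lower to called higher.

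**Figure D3:**
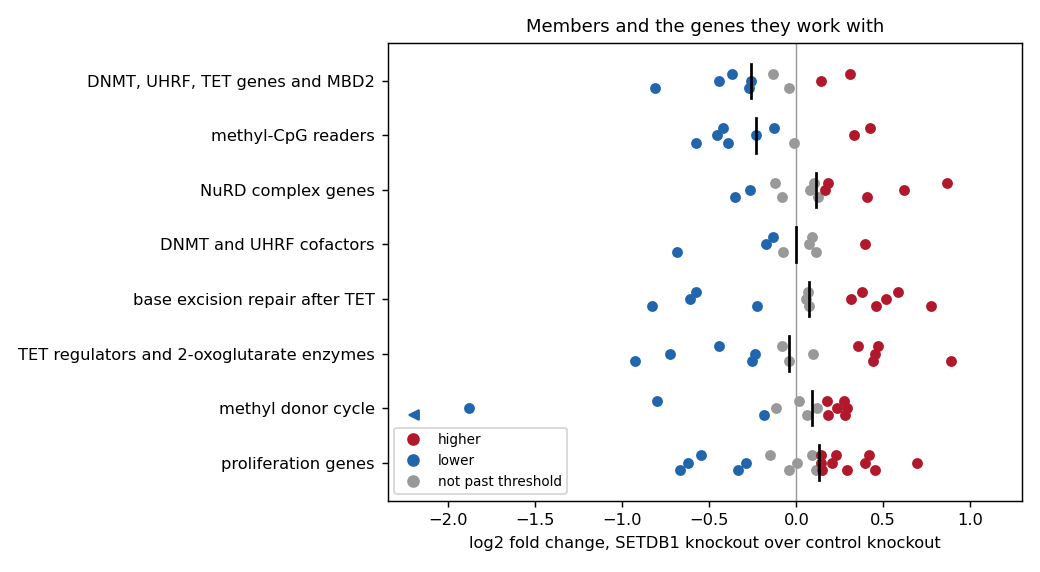
Log2 fold change (SETDB1 knockout over control) of each tested gene of the 9 described genes and of 7 related lists, in red where called higher, blue where called lower and grey where not past the threshold, with the list median as a black line. The triangle at the left edge is NNMT, whose value lies beyond the axis, and every list holds genes on both sides of 0.

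The genes whose log2 CPM over the 6 libraries was most like that of each of the 9, among 13590 with a mean of at least 1 CPM, were taken by Pearson correlation, as a description. DNMT1 was nearest to the DNA damage gene DDB2 (r = 0.9986), UHRF1 to the chaperone cofactor gene HSPBP1 (0.9979), DNMT3B to AHNAK (0.9993), UHRF2 to RGPD8 (0.9993) and TET1 to SYNC (0.998). TET3 was nearest to MTA1 (0.998), a NuRD gene named above, MBD2 to ABRAXAS1 (0.9985), DNMT3A to LTBP2 (0.990) and TET2 to ZDBF2 (0.987). The number of genes with r above 0.9 was 3343 for UHRF2 and 102 for DNMT3A, since 6 libraries in 2 groups give high values to any pair of genes that differ between the groups. RGPD8 belongs to a family of near-identical genes, so its reads are uncertain.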

How the data were processed

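RNA-seq of 3 SETDB1-knockout and 3 control-knockout H1299 samples was analysed, with groups and replicate numbers from the sample titles. The authors deposited a table of raw counts, whole reads per Ensembl gene. FastQC, TopHat2, HTSeq and GRCh38.p7 are named in the submitters' processing notes; versions, settings and strandedness were not given in the sources used. The smallest row maximum was 11 counts, and genes below it are not analysed here. Identifiers were matched without version to GENCODE 29, which named 18595 of 18677 rows and gave coordinates and exon lengths.

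Counts were tested in R 4.3.3 with edgeR 4.0.16 (filterByExpr, which removed 1002 rows, TMM scaling, robust glmQLFit and glmQLFTest), SETDB1 knockout over control, with Benjamini-Hochberg adjustment over all genes and a threshold of 0.05. CPM used TMM-scaled totals, and 1 count was 0.0278 to 0.0339 CPM. The common biological coefficient of variation was 4.89%. Counts of replicates differed beyond counting error (chi-square over its degrees of freedom 2.28 to 9.83), so none was treated as a copy. DESeq2 1.42.0 and limma 3.58.1 (voom) were alternatives, with other scalings, filters, a replicate block, a neighbourhood correction and each library left out. The counts over the 5 nearest genes on each side were added after the values were seen.

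The genes, lists and the neighbourhood step were chosen with earlier results of these data known. Named were the 9 genes, SETDB1, the overlapping gene, up to 3 rising and 3 falling called genes of each list and the nearest gene by correlation. TDG, MAT2A, DNMT3L, HORMAD1 and markers were named besides. On simulated counts for this comparison with 17157 genes tested, edgeR called 46% of genes changed by 0.25 on the log2 scale, 80% at 0.5 and 100% at 1, and 9 of 16957 unchanged genes. So few genes were changed in the simulation that these rates do not give the sensitivity here.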

Additional observations from a re-analysis of the deposited data

How the results depend on the processing

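Over 15 alternatives (scaling, filters, DESeq2, limma-voom, the replicate block, the neighbourhood median and each library left out), DNMT3B, UHRF2, TET1 and TET3 kept their direction and their call in all, and DNMT3A stayed uncalled in all. With the neighbourhood median taken out, TET1 and UHRF2 kept their calls at edgeR adjusted p = 0.0496 and 0.0161. The p-values of that fit are too small, so the call of TET1 there is uncertain. TET1 ranged from -0.90 to -0.27 and DNMT3B from -0.49 to -0.40 on the log2 scale. UHRF1 lost its call only with the neighbourhood median taken out, at 0.12 (edgeR adjusted p = 0.0699). That alternative reversed DNMT1 to -0.12 and MBD2 to 0.057, and it left 0 of the 9 genes called higher; the cause was not tested. With single libraries left out, 1 to 2 of the 9 genes were called higher and 5 to 6 lower, DNMT1 losing its call in the absence of SETDB1-knockout replicate 3 or control replicate 2. Counts of all genes called stayed within 1.5 times of the 5635 higher and 5584 lower.

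Whether replicate numbers pair the samples was not settled. The deviations of same-numbered libraries correlated at 0.208, -0.094 and 0.086 for replicates 1, 2 and 3. With other-numbered control libraries the values were -0.262 to 0.078, -0.155 to 0.224 and -0.094 to 0.006. Replicates 1 and 3 thus lay above that range and replicate 2 did not. With the replicate block, 5864 genes were called higher and 5839 lower, and TET2 passed at -0.13 (edgeR adjusted p = 0.0446), with no other call among the 9 changed. Counts for the lists of related genes stayed within 1.5 times in 269 of 300 repeats. The 5 ratios moved by less than 1 SD in all 30 repeats that left a library out. Leaving out 1 of 3 libraries cannot move a group mean by 1 SD of that group, so this does not show that the ratios are stable. Levels per kb moved by more than 1 SD for 8 of the 9 genes with the longest transcript as the length. Depth limited TET1 most, with 106 to 231 counts per library.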
